A study of Mus musculus with 12 samples.

Results

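A set of 10 genes of DNA methylation and of the chromatin marks beside it were followed through mouse bone marrow carrying loss of Ezh2, oncogenic NRas G12D, or both. They were chosen by name, as listed epigenetic regulators, and make up 10 of the 27998 genes counted: Dnmt1, Dnmt3a, Dnmt3b, Tet1, Tet2, Tet3, Idh1, Idh2, Asxl1 and Kdm6b. Their levels were taken from single-cell RNA counts as UMIs (unique molecular identifiers, each standing for 1 captured mRNA molecule). Values are given as CPM, the UMIs of a gene among 1000000 UMIs of a library or cell class. DNA methylation itself was not measured.

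DNA methyltransferases place methyl groups on cytosine: Dnmt1 copies the pattern to the new strand after replication, and Dnmt3a and Dnmt3b write it de novo. Tet1, Tet2 and Tet3 oxidise methylcytosine towards its removal and need 2-oxoglutarate, the product of the isocitrate dehydrogenases Idh1 (cytosol) and Idh2 (mitochondria). Kdm6b, another 2-oxoglutarate-dependent enzyme, removes the H3K27 methyl mark that Ezh2 places, and Asxl1 is a partner of the enzyme that removes ubiquitin from histone H2A. DNMT3A, TET2, IDH1, IDH2, ASXL1 and EZH2 are recurrently mutated in human myeloid neoplasms.

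Bone marrow cells enriched for c-Kit, a receptor of hematopoietic stem and progenitor cells (HSPCs), were profiled with 1 library per genotype and time point, 12 in all. The groups were WT (Mx1-Cre negative), E2-KO (Mx1-Cre+;Ezh2 f/f), G12D (Mx1-Cre+;NRas G12D+/-) and G12D/E2-KO (Mx1-Cre+ with both alleles), on a C57BL/6 background. Mice of all groups, WT included, received pIpC at 8 to 12 weeks of age by the labels (the study's text gives a younger age), and marrow was taken 2 weeks (T1), 2 months (T2) or 4 months (T3) later. Mx1-Cre acts in interferon-responsive cells, not in HSPCs alone, and is absent from WT, so Cre and the alleles cannot be told apart against WT. The labels do not say how many mice went into a library, so p-values measure the spread between libraries.

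Libraries held 2350 to 3767 cells and 12636998 to 23646292 UMIs, with medians of 3780.5 (E2-KO T3) to 6975.5 (WT T2) UMIs per cell. In the G12D T1 table, 2896 of 5648 cells matched cells of G12D/E2-KO T1, 1494 of the pairs with the same count in every gene. They carried Ezh2 at 20.9 CPM against 86.3 CPM in the remaining cells; the matched cells were left out of G12D T1. Ezh2 was at 103 to 133 CPM in WT and 81.7 to 103 CPM in G12D, and lower where it was deleted, at 27.7 to 34.6 CPM in E2-KO and 20.7 to 25.3 CPM in G12D/E2-KO. Xist was at 1300 to 1360 CPM at T3 in WT, E2-KO and G12D and was at most 0.608 CPM in the other libraries, so sex differed between genotypes at T3. Kit, which encodes the receptor selected for, was at 43.6 to 80.8 CPM over all cells, and stood at 72.6 to 133 CPM in HSC/MPP and 10.9 to 23.0 CPM in late GN. Cells were put into classes from 28 clusters of WT cells named by markers, without the 10 genes among the clustering genes, and cells of the mutants were assigned by their nearest neighbours among WT cells. The markers of late erythroid (late Ery), megakaryocytic (Meg), late granulocytic (late GN) and pro-monocytic (ProMo) cells were all highest in their own class, as were 10 of 12 HSC/MPP (stem cell and multipotent progenitor) markers. The MEP and EryP/early Ery classes were less distinct, with 2 of 6 and 3 of 8 of their markers highest there.

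Tet2 and Idh2 are the genes on which the genotype comparisons turn, and the RefSeq sequence before their starts is shown for that reason (GRCm38.p6, mm10; CpG dinucleotides in capitals). Tet2 lies on chromosome 3 at 133463679-133545139 (minus strand) and its window on the same strand at chr3:133544391-133544640, inside the gene's GENCODE M21 span but outside its exons. Idh2 lies on chromosome 7 at 80094846-80115392 (minus strand), and the bases before its first GENCODE exon are at chr7:80115393-80115600.
Tet2: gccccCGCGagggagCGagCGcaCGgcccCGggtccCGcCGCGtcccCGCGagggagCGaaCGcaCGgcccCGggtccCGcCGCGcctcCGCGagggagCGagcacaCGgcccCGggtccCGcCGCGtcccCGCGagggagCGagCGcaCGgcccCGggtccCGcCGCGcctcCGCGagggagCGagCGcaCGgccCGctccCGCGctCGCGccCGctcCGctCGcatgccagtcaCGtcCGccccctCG
Idh2: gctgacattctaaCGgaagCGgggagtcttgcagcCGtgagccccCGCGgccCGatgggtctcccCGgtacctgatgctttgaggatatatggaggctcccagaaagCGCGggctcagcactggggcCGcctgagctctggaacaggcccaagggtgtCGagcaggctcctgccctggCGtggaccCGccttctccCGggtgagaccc
The Tet2 window held 51 CpG in 250 bases, a number that 0.067% of 32851 mouse promoter windows reached. The 250 bases before the RefSeq start of Idh2 held 17 CpG, which 23.5% of windows reached. The letters GGGCGG, the core of an SP1 box, occurred on either strand 1 time for Tet2 and 2 times for Idh2, both of the latter next to the RefSeq start in bases that are not shown, against at least 1 match in 32.7% of all windows. RefSeq windows were matched for 9 of the 10 genes (not Kdm6b), and an E2F motif (TTTCCCGC, TTTGGCGC, TTTCGCGC or TTTGCCGC, either strand; 1.86% of windows) was found in them only in 1 of 3 windows of Dnmt1.

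In normal marrow the 10 genes followed different lineages (mean CPM ± SD of 3 WT libraries; differences between classes are descriptions). Dnmt1 was broad. It stood between 81.0 ± 20.9 CPM (MEP) and 114 ± 1.49 CPM (Meg) in 7 classes, neighbours in that order overlapping. It stood apart from them at 48.9 ± 5.85 CPM in late GN. CPM is a share of all UMIs of a class. In late GN the 10 late GN markers held a median of 423000 CPM over the libraries. In late Ery the 8 late Ery markers held 465000 CPM. All other genes of these classes, S phase genes included, share the UMIs that remain. Values in late GN and late Ery are thus not levels per cell. The summed CPM of 17 S phase genes was 733 to 893 in WT late GN, 1840 to 2520 in WT late Ery and 1330 to 1580 over all WT cells. Dnmt1 was at 91.3 ± 18.3 CPM in late Ery. The part of the markers' share in the low Dnmt1 of late GN was not tested. Dnmt3a was highest in Meg (55.3 ± 8.96 CPM), then HSC/MPP (37.4 ± 1.93 CPM), both apart from the next class. It was lower in MEP, GMP/early GN, ProMo and EryP/early Ery, down to 5.06 ± 0.564 CPM in late GN and 1.72 ± 2.97 CPM in late Ery (5 UMIs), which overlapped. Dnmt3b had a similar order, with 32.4 ± 10.6 CPM in Meg and 30.8 ± 2.47 CPM in HSC/MPP, which overlapped. In late GN only 7 Dnmt3b UMIs were counted over the WT libraries (0.596 ± 0.291 CPM), and in late Ery there was 1; 0 UMIs in WT T1 allow up to 3.82 CPM (3 UMIs). 

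**Figure D1:**
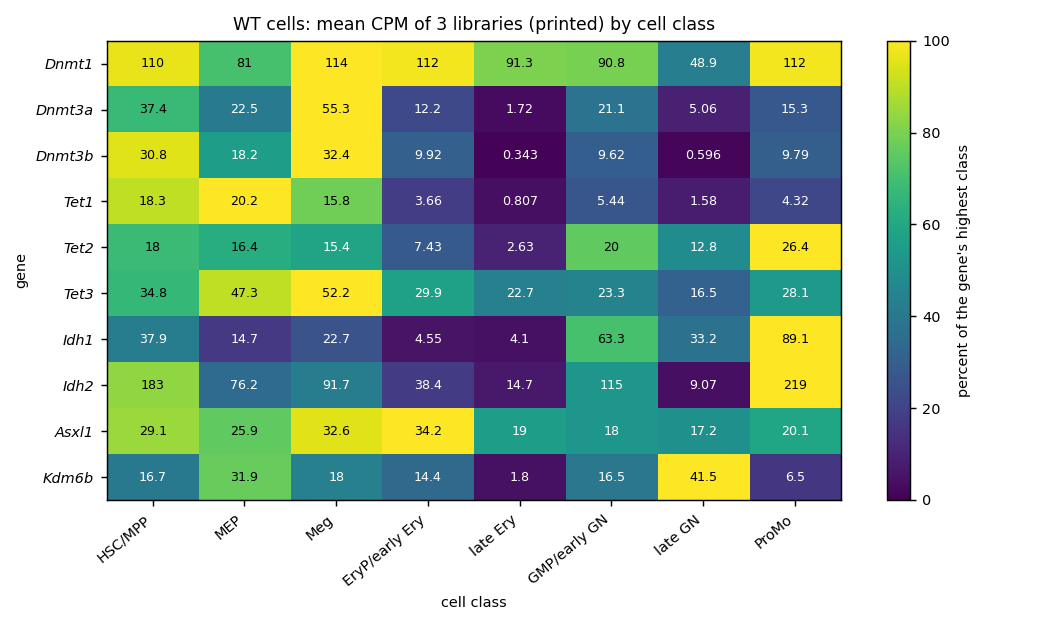
Mean CPM over the 3 WT libraries of each gene (rows) in each cell class (columns), printed in the cells; colour gives each value as a percent of that gene's highest class. Dnmt3a, Dnmt3b and Tet1 were highest in HSC/MPP, MEP or Meg, Idh1, Idh2 and Tet2 in ProMo, and Kdm6b in late GN.

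Among the Tet genes, Tet1 resembled Dnmt3b, at 20.2 ± 4.04 CPM in MEP, 18.3 ± 5.18 CPM in HSC/MPP and 15.8 ± 6.02 CPM in Meg, overlapping, and 5.44 ± 1.48 CPM or less elsewhere. Tet2 instead was highest in ProMo (26.4 ± 5.20 CPM), followed by GMP/early GN (20.0 ± 1.58 CPM), HSC/MPP, MEP, Meg and late GN (12.8 ± 2.07 CPM), and was lower in EryP/early Ery (7.43 ± 1.01 CPM). Tet3 was present in all 8 classes, from 52.2 ± 8.38 CPM in Meg to 16.5 ± 3.24 CPM in late GN. Idh1 was highest in ProMo (89.1 ± 19.2 CPM) and next in GMP/early GN (63.3 ± 1.84 CPM), without overlap, and low in EryP/early Ery (4.55 ± 0.736 CPM). Idh2 was at 219 ± 22.8 CPM in ProMo and 183 ± 33.8 CPM in HSC/MPP, which overlapped, then 115 ± 11.0 CPM in GMP/early GN, and 9.07 ± 1.58 CPM in late GN. Both dehydrogenases were thus highest in ProMo, but late GN kept Idh1 at 33.2 ± 4.16 CPM. Asxl1 varied least clearly: it lay between 34.2 ± 3.33 CPM (EryP/early Ery) and 17.2 ± 2.03 CPM (late GN), with every neighbour in the order overlapping. Kdm6b was highest in late GN (41.5 ± 7.98 CPM), overlapping with MEP (31.9 ± 10.3 CPM), and at 6.50 ± 2.71 CPM in ProMo and 1.80 ± 1.57 CPM in late Ery.

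The same class was highest in most or all 12 libraries for several genes: ProMo in 12 for Idh1, late GN in 11 for Kdm6b, and Meg in 10 for Dnmt3a. Over the 96 sums of a library and a class, Dnmt3b and Tet1 were the most alike pair of the 10 genes (Pearson r = 0.858 of log2(CPM + 1)), followed by Dnmt3a and Dnmt3b (r = 0.81). Of about 4860 genes with at least 20 CPM on average, the most like Idh2 were Phgdh, the entry enzyme of serine synthesis (r = 0.956), Bphl (r = 0.951) and Itm2c (r = 0.933). The gene most like Dnmt1 was Mcm3, a subunit of the replicative helicase (r = 0.844), ahead of Alyref (r = 0.799) and Hnrnpa2b1 (r = 0.795). Dnmt3a was most like Ocrl (r = 0.88), Mef2c (r = 0.866) and Erbb2ip (r = 0.865). Dnmt3b was most like Ttc3 (r = 0.907), Gtf2i (r = 0.906) and Rab38 (r = 0.906). Rab38 also led for Tet1 (r = 0.89), with Runx3 (r = 0.89) and Cxxc5 (r = 0.889). Tet2 was most like Spin1 (r = 0.897), Irf2bp2 (r = 0.883) and Glud1, glutamate dehydrogenase (r = 0.878). Tet3 was most like Zcchc11 (r = 0.848), Nfya (r = 0.839) and Ddx17 (r = 0.835). Idh1 was most like Adssl1 (r = 0.902), Pgam1 (r = 0.893) and Asah1 (r = 0.883). Asxl1 was most like Setd2, an H3K36 methyltransferase (r = 0.807), Tnrc6a (r = 0.803) and Jmjd1c (r = 0.798). Kdm6b was most like Grk6 (r = 0.824), Hcfc1r1 (r = 0.808) and R3hdm4 (r = 0.808). These points share libraries, depth and the class order, and the correlations describe the classes more than the genotypes.

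Over all cells, Tet2 was the only one of the 10 genes that passed the test in a genotype comparison, and it rose in G12D/E2-KO against WT. WT held Tet2 at 12.4, 13 and 12.7 CPM at T1, T2 and T3, E2-KO at 16.1, 13.7 and 22.7 CPM, G12D at 16.6, 14.0 and 20.7 CPM, and G12D/E2-KO at 18.8, 28.0 and 30.3 CPM. Every mutant library was above every WT library, and the G12D/E2-KO libraries at T2 and T3 were the highest of all. Weighted by the WT mix of the 8 tested cell classes, G12D overlapped with WT. The log2 fold change was 0.94 (SE 0.18, 95% interval 0.54 to 1.34; adjusted p = 0.0202, edgeR quasi-likelihood test over 12848 genes), in a comparison in which 5.69% of genes passed. Against WT the log2 fold change was 0.45 in G12D (adjusted p = 0.394) and 0.42 in E2-KO (adjusted p = 0.295), and the interaction of both mutations was 0.066 (95% interval -0.50 to 0.64). Against E2-KO it was 0.52 and against G12D 0.49 (adjusted p = 0.165 and 0.25).

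**Figure D2:**
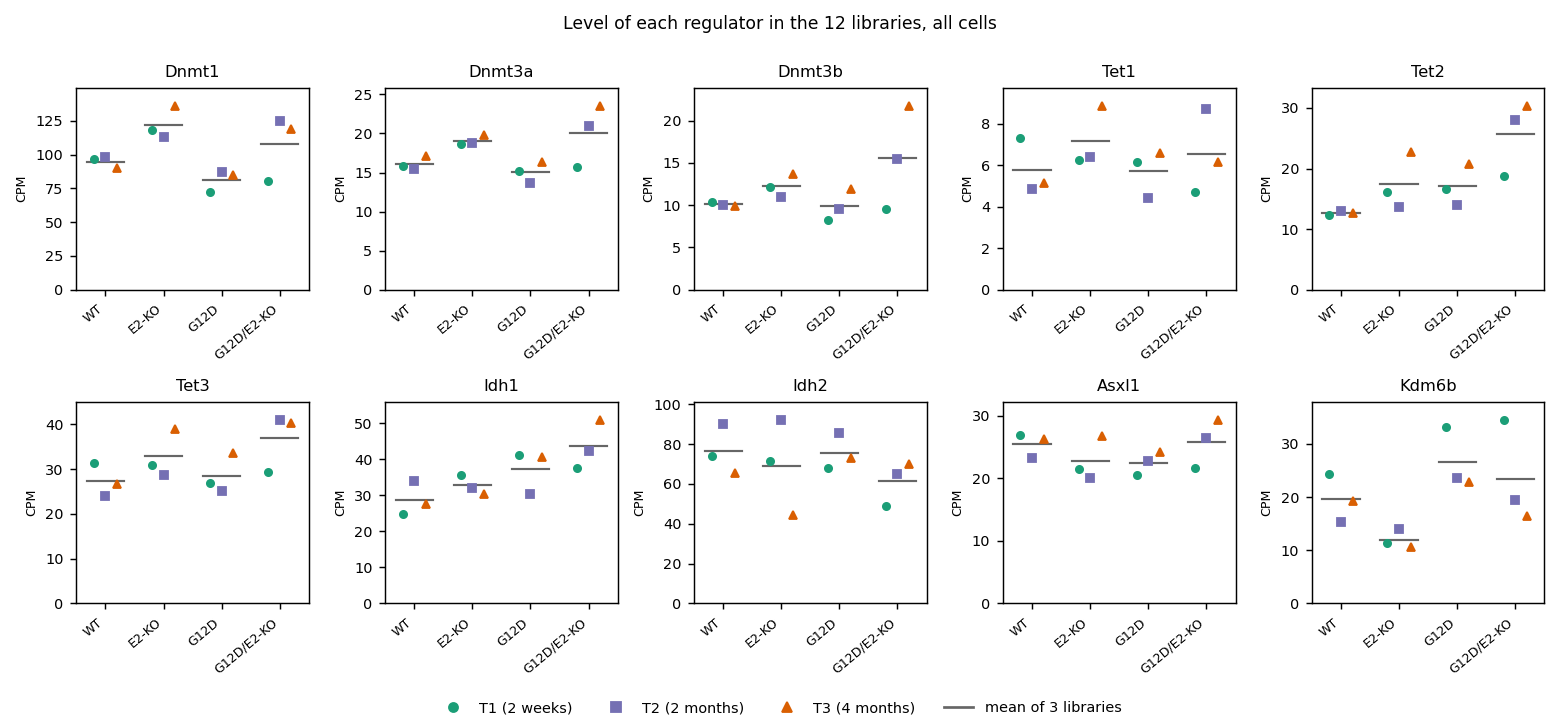
CPM over all cells (vertical axes, from 0) of the 10 genes in the 12 libraries by genotype, 1 point per time point and a line at the mean of 3 libraries. Tet2 was between 18.8 and 30.3 CPM in G12D/E2-KO and between 12.4 and 13 CPM in WT.

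The Tet2 call was lost without WT T1 (adjusted p = 0.08, edgeR), WT T3 (0.135) or G12D/E2-KO T2 (0.103). The log2 fold changes in these fits were 0.96, 0.83 and 0.73, and over all 12 omissions they ran from 0.73 to 1.05. In these 3 fits 0.854%, 0.696% and 0.794% of all genes passed, against 5.69% with all libraries. Median UMIs per cell were 4186 and 5133 in the G12D/E2-KO libraries at T2 and T3 and 3780.5 in E2-KO T3, the highest of E2-KO for Tet2, against 5514 to 6975.5 in WT; with that median as a covariate the log2 fold change was 0.74 (adjusted p = 0.0666). 

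Within classes, the log2 fold change of Tet2 in G12D/E2-KO against WT was above 0 in the 6 classes where it was tested, and did not pass in any of them. In GMP/early GN the WT libraries held 21.8, 19.0 and 19.1 CPM and the G12D/E2-KO libraries 30.0, 35.0 and 40.7 CPM, with no overlap (log2 fold change 0.76, SE 0.21, adjusted p = 0.0562, edgeR). The groups were also apart in each of the 3 clusters of the class. E2-KO T3 was higher still there, at 48.0 CPM, and so in HSC/MPP, at 51.5 CPM against 16.1 to 19.6 CPM in WT. In EryP/early Ery, G12D/E2-KO held Tet2 at 9.14, 13 and 15.4 CPM and WT at 8.58, 6.95 and 6.75 CPM (log2 fold change 0.83, adjusted p = 0.0681, edgeR). In late GN they held 15.2, 24.2 and 27.8 CPM against 11.5, 11.7 and 15.2 CPM (log2 fold change 0.56, adjusted p = 0.0949, edgeR). Late GN held 6 clusters in differing shares, that led by Actb, Ncam1 and Ptafr making up 16.4% of the class in G12D/E2-KO and 9.88% in WT. Tet2 overlapped between these groups in 5 of the 6 clusters and was apart in that led by Chil3 and Camp, at 15 to 26.1 CPM against 9.68 to 14.7 CPM. In ProMo, the class where Tet2 was highest in WT, 25.5 to 45.6 CPM overlapped with 22.8 to 32.4 CPM.

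**Figure D3:**
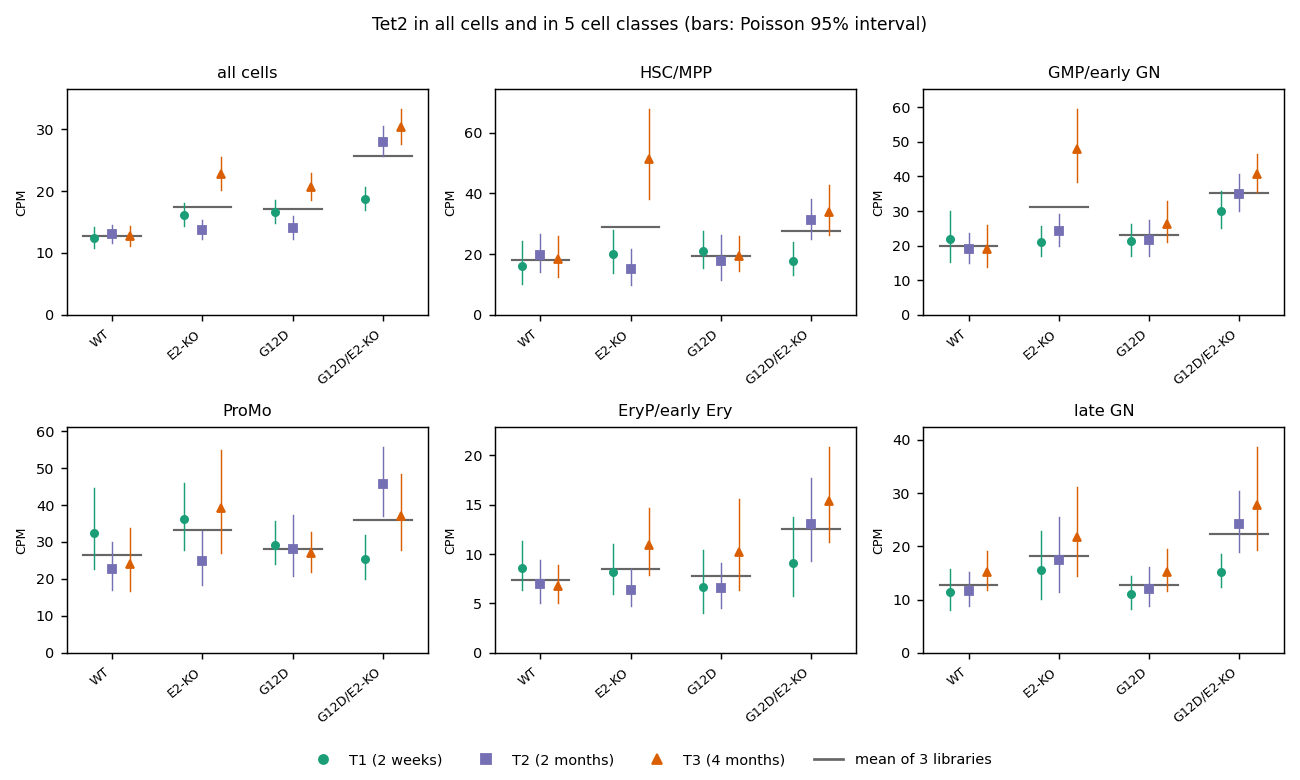
Tet2 CPM by genotype in all cells and in 5 classes, 1 point per library with its exact Poisson 95% interval (counting error only) and a line at the mean of 3. In GMP/early GN the 3 G12D/E2-KO libraries (30.0 to 40.7 CPM) were above the 3 WT libraries (19.0 to 21.8 CPM), and E2-KO T3 was at 48.0 CPM.

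Idh2 was the gene called within a class, in ProMo and GMP/early GN and in none of the other 6 classes. Over the 8 classes, 63 pairs of one of the 10 genes and a class were tested, of which 1 passed for E2-KO against WT (1.34% of all pairs of a gene and a class did). The number was 2 for G12D/E2-KO against WT (2.49%) and 1 for G12D/E2-KO against G12D (1.73%), and every one of these pairs was of Idh2. For G12D against WT, G12D/E2-KO against E2-KO and the interaction 0 passed in edgeR (0.145%, 0.0654% and 0.0558% of all pairs). The counts of pairs that passed lie near the shares over all pairs and are no result about the 10 genes as a set. At an unadjusted p under 0.05, 13 of 63 pairs stood for E2-KO against WT (12.6% of all pairs did), 16 for G12D/E2-KO against WT (15.9%) and 14 for its comparison with G12D (13.6%). For the other 3 comparisons, in the order above, these were 3, 6 and 0 of 63, where 4.91%, 5.74% and 3.71% did. In ProMo it stood at 226, 238 and 194 CPM in WT, 139, 232 and 151 CPM in G12D, 127, 190 and 99.5 CPM in E2-KO, and 113, 123 and 127 CPM in G12D/E2-KO. All G12D/E2-KO libraries were below all WT and G12D libraries, all E2-KO libraries were below WT, and G12D T2 was in the WT range. Idh2 fell in G12D/E2-KO against WT (log2 fold change -0.92, SE 0.16, adjusted p = 0.000649, edgeR over 8915 genes, of which 3.34% passed). This call held in all 5 alternative fits, none of which had Xist as a covariate, and without each of the 12 libraries in turn. It also fell in E2-KO against WT (-0.65, adjusted p = 0.0333; 1.14% passed) and in G12D/E2-KO against G12D (-0.60, adjusted p = 0.0288; 2.66% passed). Those last calls passed in 2 and 1 of the 5 alternative fits. Both were lost without the time point term (adjusted p = 0.192 and 0.101) and with the matched cells kept in G12D T1 (0.0563 and 0.146). The E2-KO call was also lost with median UMIs per cell as a covariate (0.088), and the call against G12D with classes set by the highest marker score (0.105) and with DESeq2 (0.0563). With 1 library left out, the E2-KO call was lost for 6 of the 12 libraries (each WT library, E2-KO T1, E2-KO T3 and G12D T2) and the call against G12D for 4 (each G12D library and G12D/E2-KO T2).

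In GMP/early GN, Idh2 was at 104, 126 and 117 CPM in WT and 66.6, 71.7 and 77.1 CPM in G12D/E2-KO, and fell (log2 fold change -0.74, SE 0.16, adjusted p = 0.0123, edgeR; 2.35% of genes passed). It no longer passed when WT T3 or the G12D/E2-KO library of T2 was left out (adjusted p up to 0.165), without the time point term (0.0582) and with median UMIs per cell as a covariate (0.0767). E2-KO T3 was again the lowest library of all, at 58.9 CPM. GMP/early GN held 3 clusters in differing shares (43.5% of G12D/E2-KO and 52.4% of WT cells of the class in the cluster led by Elane and Mpo). In that cluster Idh2 was at 85.3 to 92.4 CPM in G12D/E2-KO and 133 to 158 CPM in WT, in the one led by Slc39a1 and Pam at 68.1 to 100 against 131 to 153 CPM. In the one led by Fcnb it was at 28.2 to 39.6 against 32.3 to 56.1 CPM, the only overlap. In HSC/MPP, 106, 120 and 130 CPM in G12D/E2-KO were below 157, 221 and 171 CPM in WT without a call (log2 fold change -0.56, adjusted p = 0.156, edgeR). In late GN and late Ery, where Idh2 was low in WT, the log2 fold changes were -0.16 and -0.017, with 95% intervals from -0.77 to 0.45 and from -0.83 to 0.80.

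**Figure D4:**
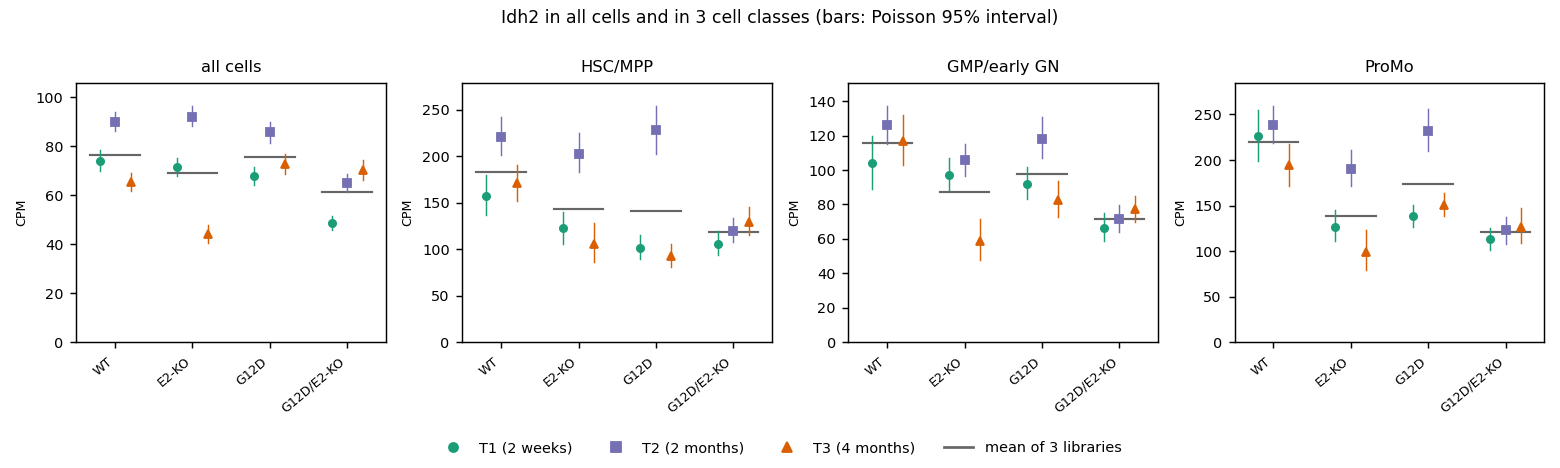
Idh2 CPM by genotype in all cells and in 3 classes, 1 point per library with its exact Poisson 95% interval (counting error only) and a line at the mean of 3. In ProMo the G12D/E2-KO libraries were at 113 to 127 CPM and the WT libraries at 194 to 238 CPM; over all cells the groups overlapped.

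Over all cells Idh2 did not pass (WT 76.4 ± 12.5 CPM, G12D/E2-KO 61.2 ± 11.2 CPM, log2 fold change -0.37, adjusted p = 0.164, edgeR), except without E2-KO T3, where 7.61% of all genes passed. The mix of classes differed between the libraries. GMP/early GN made up 10.8% to 14.0% of cells in WT and 14.6% to 32.2% in G12D/E2-KO, and EryP/early Ery 15.3% to 20.7% and 6.41% to 11.8%. Each library's levels in the 8 tested classes were then weighted by the WT mix. Cells outside these classes enter the unweighted ratios only. Among them, B lymphoid cells were 0.67% to 9.87% of cells in WT, 12.4% to 13.6% in E2-KO and 0% to 3.93% in G12D/E2-KO. Weighted and unweighted ratios thus differ in the cells covered as well as in the mix. The log2 ratio of the G12D/E2-KO mean over the WT mean moved from -0.32 to -0.62 for Idh2 (46.6 ± 2.79 against 71.9 ± 7.16 CPM, without overlap). For Tet2 it moved from 1.02 to 0.68 (20.9 ± 4.66 against 13 ± 0.486 CPM, without overlap). For G12D the log2 ratio of Tet2 moved from 0.43 to 0.10, at 12.8, 13.2 and 16.0 CPM against 13.6, 12.6 and 13 CPM in WT, which overlapped.

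Idh1 was above WT over all cells in G12D/E2-KO, and not within the classes where it was highest. WT held 24.8, 33.9 and 27.7 CPM and G12D/E2-KO 37.7, 42.3 and 50.9 CPM, all above WT (log2 fold change 0.53, SE 0.17, adjusted p = 0.0789, edgeR). Idh1 passed with DESeq2 (10.3% of all genes did), without WT T2 (3.86%) and without G12D T2 (7.36%). Weighted by the WT mix the log2 ratio of the means was 0.11 in place of 0.60, and the groups overlapped. In G12D the ratio turned direction under this weighting, from 0.38 to -0.15 (26.9 ± 0.491 against 29.8 ± 0.884 CPM), with all G12D libraries below WT. In ProMo and GMP/early GN the log2 fold changes were 0.0033 (95% interval -0.35 to 0.36) and 0.06 (-0.22 to 0.34). 

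The writers did not pass over all cells in any genotype comparison, in edgeR or in DESeq2. Dnmt3b, at 10.4, 9.98 and 9.94 CPM in WT, was at 9.56, 15.4 and 21.7 CPM in G12D/E2-KO, above WT at T2 and T3 and below it at T1 (log2 fold change 0.50, adjusted p = 0.0899, edgeR). Without G12D/E2-KO T1 it passed against both WT and G12D, where 5.29% and 2.69% of all genes passed. Weighted by the WT mix of classes, G12D/E2-KO T1 was at 12.1 CPM, and all 3 G12D/E2-KO libraries were above WT (9.58 to 10.5 CPM). In EryP/early Ery it was at 15.8, 11.4 and 16.5 CPM against 9.26, 9.86 and 10.7 CPM in WT, without overlap (log2 fold change 0.60, adjusted p = 0.0889, edgeR). Dnmt1 was at 118, 113 and 136 CPM in E2-KO, above WT (96.8, 98.2 and 89.9 CPM), and at 72.3 to 87.5 CPM in G12D, below it, with log2 fold changes of 0.35 and -0.19 (adjusted p = 0.243 and 0.591, edgeR). Dnmt3a (18.6 to 19.8 CPM) and Dnmt3b (11.0 to 13.7 CPM) in E2-KO were also above WT (15.5 to 17.1 and 9.94 to 10.4 CPM). Their log2 fold changes were 0.23 and 0.25 (adjusted p = 0.399 and 0.480, edgeR). Weighted by the WT mix, Dnmt3b overlapped and Dnmt3a did not. In late GN, where it was lowest, Dnmt1 was at 74.9, 81.4 and 82.9 CPM in E2-KO against 53.7, 50.7 and 42.4 CPM in WT (log2 fold change 0.57, adjusted p = 0.0779, edgeR). The late GN cluster led by Mmp8 and Retnlg, where Dnmt1 was lowest, made up 14.5% of the class in E2-KO and 23.7% in WT. Dnmt1 there was at 7.81 to 19.9 CPM in E2-KO, from 6 UMIs, and 12.9 to 25.0 CPM in WT, which overlapped, as it did in the smallest cluster. In the other 4 clusters every E2-KO library was above every WT library. The summed S phase genes of the class were at 989 to 1100 CPM against 733 to 893 CPM; the part of proliferation was not tested. Dnmt3a in late GN was at 7.60, 12.9 and 13.5 CPM in G12D/E2-KO, from 17 to 50 UMIs a library, and 4.50 to 4.93 CPM in G12D (log2 fold change 1.0, SE 0.28, adjusted p = 0.0515, edgeR).

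**Figure D5:**
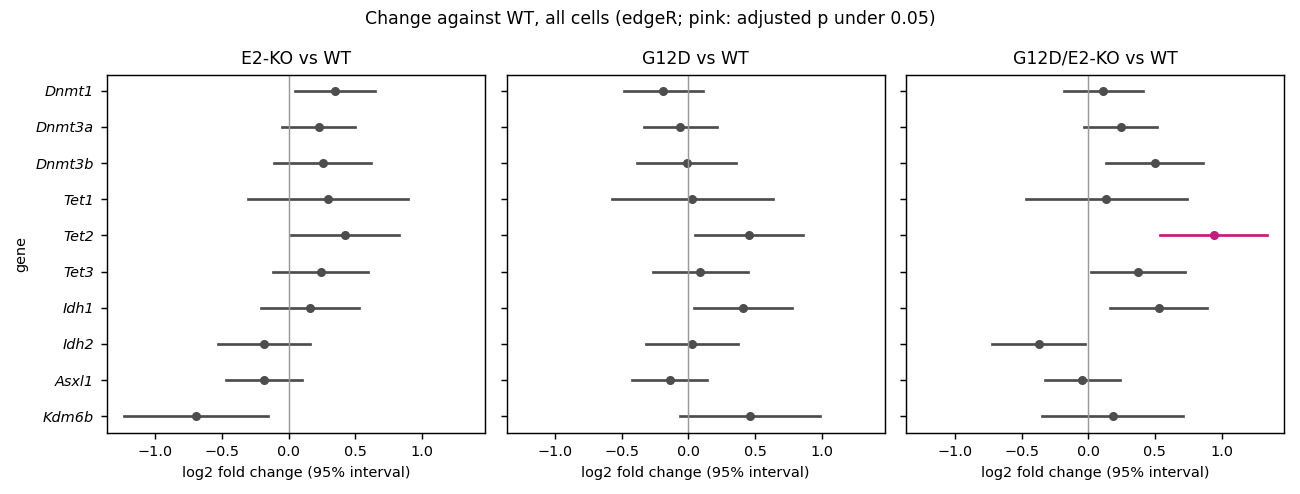
Log2 fold change against WT over all cells (horizontal axis) with its 95% interval for the 10 genes in E2-KO, G12D and G12D/E2-KO, edgeR with time point as a factor. Tet2 in G12D/E2-KO (0.94, 95% interval 0.54 to 1.34) has an adjusted p under the threshold of 0.05, and the others do not.

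Kdm6b was lowest in E2-KO. It stood at 11.4, 14.0 and 10.6 CPM there, below 24.4, 15.4 and 19.3 CPM in WT, 33.2, 23.5 and 22.9 CPM in G12D, and 34.5, 19.4 and 16.5 CPM in G12D/E2-KO, and no E2-KO library reached any other library. The log2 fold change of E2-KO against WT was -0.70 (SE 0.24, adjusted p = 0.200) and that of G12D/E2-KO against E2-KO 0.88 (SE 0.25, adjusted p = 0.115, both edgeR), in comparisons in which 1.59% and 0.0934% of genes passed. The first passed when only these genotypes were fitted, where 5.04% of all genes passed. With 1 library left out the first passed in 0 of 12 fits and ran from -0.93 to -0.43 (adjusted p up to 0.627, edgeR). The second passed with DESeq2 (5.40% of all genes passed), with Xist as a covariate (3.53%) and without G12D/E2-KO T3 (3.57%). The class in which Kdm6b was highest, late GN, made up 11.2% to 15.3% of cells in E2-KO and 28.3% to 36.6% in WT, and within it Kdm6b was at 34.7, 41.7 and 30.6 CPM in E2-KO and 50, 34.1 and 40.4 CPM in WT (log2 fold change -0.35, adjusted p = 0.371, edgeR). Weighted by the WT mix of classes, the log2 ratio of the E2-KO mean over the WT mean moved from -0.71 to -0.38 (15.4 ± 2.77 against 20.0 ± 4.71 CPM), and the groups overlapped. In EryP/early Ery, 8.21, 10.2 and 8.11 CPM were below 14.0, 13.4 and 15.8 CPM (log2 fold change -0.67, adjusted p = 0.0920, edgeR). The late GN cells were uneven: in a cluster led by Actb, Ncam1 and Ptafr, Kdm6b was at 111 to 139 CPM in WT and 74.9 to 121 CPM in E2-KO, against 19.1 to 27.7 CPM and 23.1 to 26.6 CPM in the cluster led by Chil3 and Camp. The groups overlapped in both, and the former made up 9.88% of late GN cells in WT and 12.6% in E2-KO. Summed CPM of 14 immediate early and dissociation genes, which respond to cell handling, was 90.1 to 126 in E2-KO and 109 to 183 in G12D/E2-KO, and 128 to 146 in WT and 145 to 163 in G12D; their part in the result was not tested.

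Tet1, Tet3 and Asxl1 did not pass in any comparison over all cells or within a class (edgeR). Tet1 had the widest intervals, from 78 to 162 UMIs a library, with a log2 fold change of 0.14 (95% interval -0.47 to 0.74) in G12D/E2-KO against WT. Tet3 was at 29.4, 41.0 and 40.3 CPM in G12D/E2-KO and 31.3, 24.1 and 26.8 CPM in WT (log2 fold change 0.37, adjusted p = 0.171, edgeR), high in the T2 and T3 libraries in which Tet2 was also high. Asxl1 was at 25.8 ± 3.89 CPM in G12D/E2-KO and 25.5 ± 1.99 CPM in WT (log2 fold change -0.044, 95% interval -0.33 to 0.24).

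Time after pIpC gave 0 calls among the 10 genes and among all 12848 genes in the main edgeR fit, and 0 among the 10 in DESeq2. With DESeq2 0.0467% of all genes passed for T2 against T1 and 0.148% for T3 against T1. With Xist as a covariate in edgeR these shares were 0.0156% and 1.88%. Xist was high at T3 in WT, E2-KO and G12D and in no library of T1 or T2. In those genotypes T3 against T1 is also a comparison of sexes, and time and sex cannot be told apart. At an unadjusted p under 0.05 stood 3 of the 10 for T3 against T1, where 13.1% of all genes did: Dnmt3b at a log2 fold change of 0.43, Tet2 at 0.36 and Kdm6b at -0.56. For T2 against T1 these were Idh2 (0.32) and Kdm6b (-0.49), where 4.66% of genes did. In G12D against WT 0 of 10 passed (0.109% of all genes did) and 2 had an unadjusted p under 0.05, Idh1 at 0.41 and Tet2 at 0.45, against 11.8% of genes. Weighted by the WT mix of classes, Idh1 was lower in G12D than in WT and Tet2 overlapped with it, as given above. In E2-KO against WT and in G12D/E2-KO against E2-KO 0 of 10 passed, and 3 and 2 of 10 were at an unadjusted p under 0.05, against 16.1% and 19.1% of genes. In G12D/E2-KO against G12D (1.36% of genes passed) 0 of 10 passed and 5 were at an unadjusted p under 0.05, Dnmt3b, Tet2, Idh2, Dnmt1 and Dnmt3a, against 14.8% of genes. The median log2 fold change of the 10 genes against WT was 0.026 for G12D, 0.233 for E2-KO and 0.213 for G12D/E2-KO, beside -0.009, 0.004 and 0.012 over all genes.

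The genes of the wider pathways gave no calls in 6 lists. Over all cells, in each of 5 comparisons between genotypes, 0 of 15 genes of methylation upkeep and reading, 0 of 12 tested of methylcytosine removal and Tet partners, 0 of 13 of the methyl donor cycle, 0 of 19 of 2-oxoglutarate supply and use, 0 of 8 of the Asxl deubiquitinase complex and 0 of 9 of H3K27 demethylation and the MLL3/4 complex passed. Between 0.0934% and 5.69% of all genes passed in these comparisons, so that 0 is near the background for each list taken alone. The lists were not tested together. In the same order, 0, 2, 2, 4, 2 and 1 of them were at an unadjusted p under 0.05 in G12D/E2-KO against WT, where 26.2% of all genes were. Not tested for low counts were Cxxc4, Wt1 and Neil2, and Asxl3. Of 17 S phase genes, Tyms, thymidylate synthase (log2 fold change -0.66, adjusted p = 0.0398), and Rfc4, a clamp loader subunit (-0.56, adjusted p = 0.0440), fell in G12D/E2-KO against WT, where 5.69% of all genes passed. Of 10 immediate early genes tested Egr1 rose in G12D/E2-KO against G12D (2.28, adjusted p = 0.0237, edgeR), where 1.36% passed. Egr1 was low, at an average log2 CPM of -0.218 over the libraries, so this change rests on few UMIs. Of 4 PRC2 core genes only Ezh2 passed, at a log2 fold change of -1.92 in E2-KO and -2.36 in G12D/E2-KO against WT (adjusted p = 0.000357 and 0.000115, edgeR).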

How the data were processed

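Single-cell 3' RNA libraries (10x Genomics) of c-Kit-enriched marrow were analysed. The deposited tables hold raw UMI counts per cell and gene, made by the authors with Cell Ranger against mm10; cells with over 10% mitochondrial counts and doublets called by Scrublet had been removed. The 10 genes, the lists and the tests were chosen with earlier results of these data known.

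Of 35597 cells deposited, 32701 were used. Cells of G12D T1 whose log counts over 8000 genes, the 300 most abundant left out, had a cosine above 0.9 with a cell of another library were dropped. The tables name no barcodes; in the other 65 pairs of libraries no cell passed this limit. WT cells were clustered (scanpy 1.11.5, Leiden resolution 2, 50 components, 1998 variable genes without the 10 genes and sex genes). Clusters were named from markers, 1 of 28 staying unnamed because it had under 20 WT cells, a limit set after the clusters were seen. Naming by the highest marker score gave 82.2% of cells the same class. A T number counts from T0 in the cell names, and libraries were taken from the sample records.

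Counts were summed per library and per class and tested with edgeR 4.0.16 (R 4.3.3; TMM, filterByExpr, quasi-likelihood test, genotype plus time point, Benjamini-Hochberg over all genes tested; 12848 over all cells, threshold 0.05, 6 residual degrees of freedom). All 10 genes passed the filter on low counts over all cells; within classes 4 (late Ery) to 10 did. The block on time point rests on the labels: libraries of 1 time point deviated together from their genotype means (median correlation 0.216 over 18 pairs against -0.144 over 36 pairs of other time points), though only 11 of the 18 pairs exceeded 0.1. Deviations sum to 0 within a genotype, so both medians are tied together and are not independent. The high Xist shared by WT, E2-KO and G12D at T3 also marks a sex difference that enters the first. In a simulation of E2-KO against WT over 12652 genes, 80% and 82% of genes changed by -1 and 1 on the log2 scale and 100% of those changed by -2 or 2 were called, with 13 calls among unchanged genes. Every gene there had the same spread between libraries, and no effect of time point was put in. No smaller changes were simulated, so it does not give the share called at the sizes seen for most of the 10 genes. Alternatives were DESeq2 1.42.0, its size factors, no filter, no block, the genotypes compared only, tables as deposited, Xist as a covariate, lineage genes left out, classes by marker score, each library left out, and, chosen after seeing the data, the median UMI number per cell as a covariate. Fits within classes used only DESeq2, no block, tables as deposited, classes by marker score, each library left out and the median UMI covariate. Xist was not a covariate there. Intervals on CPM are exact Poisson 95% and cover counting error only, as does the limit of 3 UMIs for a count of 0. Named genes were the 10, the 3 genes most like each, and the pathway genes that passed. Promoter sequences are from RefSeq (GRCm38.p6), positions from GENCODE M21.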

Additional observations from a re-analysis of the deposited data

Results flagged for a closer look

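Asxl1 over all cells differed in direction with NRas G12D by Ezh2 status: at each of the 3 time points it was lower in G12D than in WT (mean log2 ratio -0.18) and higher in G12D/E2-KO than in E2-KO (mean log2 ratio 0.18), a difference of -0.36 when the latter is subtracted from the former. The interaction term of the edgeR fit, which subtracts the other way round, was 0.28 (95% interval -0.12 to 0.69, adjusted p = 1) and did not pass. Weighted by the WT mix of classes, Asxl1 at T3 was at 26.5 CPM in G12D and 25.8 CPM in WT, so that the direction turned there, and the log2 ratio of the G12D mean over the WT mean was -0.048 in place of -0.18. Dixon's test for an outlying sample was not run, since each genotype had 3 libraries; what leaving out each library changed is given with the results.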

How the results depend on the processing

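The counts of the 10 genes called over all cells were 1 for G12D/E2-KO against WT (5.69% of all genes passed) and 0 elsewhere. G12D/E2-KO against WT gave 2 with DESeq2 (Tet2 and Idh1, 10.3% of all genes) and 0 with median UMIs per cell as a covariate (1.78%). G12D/E2-KO against E2-KO gave 1 with DESeq2 (5.40%) and 1 with Xist as a covariate (3.53%), Kdm6b in both. E2-KO against WT gave 1 when only the genotypes compared were fitted (Kdm6b, 5.04%). With 1 library left out, the counts ran from 0 to 2 for G12D/E2-KO against WT (0.696% to 10.5% of all genes). They ran from 0 to 1 against G12D (0.337% to 2.69%) and against E2-KO (0% to 3.57%). The shares over all genes thus moved with the setting too. Within classes, the pairs of a gene and a class called were 1 for E2-KO against WT, 2 for G12D/E2-KO against WT and 1 for G12D/E2-KO against G12D (1.34%, 2.49% and 1.73% of all pairs). Without the block on time point, which pairs the libraries by T number, these became 0, 1 and 0. They became 0 for E2-KO against WT with tables as deposited, and 0 for G12D/E2-KO against G12D with tables as deposited or with DESeq2. With median UMIs per cell as a covariate they became 0 for E2-KO against WT and 1 for G12D/E2-KO against WT. With 1 library left out they ran from 0 to 2, from 1 to 6 and from 0 to 4. For these alternative fits within classes the shares over all pairs were not counted. Their counts thus have no background beside them and are no result about the 10 genes. The causes of these moves were not tested. Among the called changes none turned direction. The 120 alternative class-weighted ratios moved by less than the spread between libraries. They used classes by marker score, or left 1 WT library out of the class weights only. All 3 WT libraries stayed in the WT means, so these ratios do not show what leaving out a library would change. The block moved no call over all cells. Depth limits Tet1, Dnmt3b and Dnmt3a in mature classes, where few UMIs were counted.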

Other observations

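In classes that were not tested because at least 1 library held under 20 of their cells, summed over the 12 libraries (Poisson 95% intervals), basophil and mast cell precursors held the most Tet2 of these, at 34.9 CPM (28.0 to 43.1), with Tet1 at 24.9 CPM (19.1 to 31.9) and Dnmt3b at 25.3 CPM (19.4 to 32.4). B lymphoid cells held Idh2 at 113 CPM (106 to 121), with Idh1 at 7.67 CPM (5.90 to 9.82). Dendritic cells held the reverse, Idh1 at 43.2 CPM (33.7 to 54.5) and Idh2 at 20.1 CPM (13.8 to 28.2). In macrophages 0 UMIs of Dnmt3b and of Tet1 were counted, which allows up to 7.4 CPM (3 UMIs), while Kdm6b was at 37.0 CPM (20.7 to 61.1) from 15 UMIs. These sums mix genotypes in unequal parts and were not compared between them. G12D/E2-KO T1 held 141 dendritic cells and the other libraries 3 to 44. B lymphoid cells numbered 312 to 400 a library in E2-KO and 0 to 148 in G12D/E2-KO. Class and genotype are thus mixed in these values, which the Poisson intervals do not cover.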
